A study of Mus musculus with 8 samples.

Results

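The 7 genes described here are the mouse Fc gamma receptors *Fcgr1*, *Fcgr3*, *Fcgr4* and *Fcgr2b*, the signaling chains *Fcer1g* (FcRγ) and *Tyrobp* (DAP12), and the neonatal Fc receptor *Fcgrt*. They were chosen by name, by a rule that uses no measured value although earlier results of these data were known, out of 57010 genes in the files. All 7 were found, and all 7 had counts in macrophage-like and monocyte-like cells of every condition.

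The counts came from single-cell RNA-Seq of kidney cells from male C57BL/6 mice whose left kidney had lost its blood flow for 30 minutes and then regained it, a model called ischemia-reperfusion injury (IRI). Kidneys were taken at day 1, 7 or 14. Mice received entospletinib, an inhibitor of spleen tyrosine kinase (SYK), at 20 mg/kg or its vehicle (DMSO) by intraperitoneal injection 30 minutes before ischemia. Mice taken at day 1 had this injection alone. For the later days injections went on daily until day 7 and every 2 days after that. A further group had untouched kidneys and no listed treatment, and serves as the uninjured control. Vehicle over control therefore joins ischemia, surgery and DMSO injection, whose parts cannot be told apart. Cells of 3 mice were pooled in each of the 7 conditions, dead cells were excluded and leukocytes were enriched by light scatter in a cell sorter. One pool per condition leaves no biological replicate, so no test was made between conditions. The cells were split over 8 sublibraries, and the SD over these (n = 8) measures technical error alone. Vehicle at each of the 3 days was compared with a single shared control pool, and each vehicle pool also served as the reference for entospletinib on its day.

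Fc gamma receptors bind the constant part of IgG and let phagocytes respond to antibody-coated targets. FcγRI (*Fcgr1*), FcγRIII (*Fcgr3*) and FcγRIV (*Fcgr4*) are activating receptors that carry no signaling motif of their own and depend on FcRγ, whose immunoreceptor tyrosine-based activation motif (ITAM), once phosphorylated by Src family kinases, recruits SYK. DAP12 is an ITAM chain of the same kind that serves other receptors, such as those of the TREM family. FcγRIIb (*Fcgr2b*) is the inhibitory member, with a motif (ITIM) that recruits the lipid phosphatase SHIP1. The neonatal Fc receptor pairs with β2-microglobulin, sits mainly in endosomes and protects IgG and albumin from breakdown.

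The motif that separates the chains from the receptors can be read in their coding sequences (GENCODE M21 models on GRCm38). The stretches below are shown because they are the part through which each protein meets SYK or SHIP1. Capitals mark the tyrosine codons.
Fcer1g ITAM: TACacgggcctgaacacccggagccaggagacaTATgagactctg
Tyrobp ITAM: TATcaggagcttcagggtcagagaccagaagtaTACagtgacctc
Fcgr2b ITIM: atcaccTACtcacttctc

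The *Fcer1g* stretch begins at codon 65 and lies on the minus strand of chr1:171229889-171230072, split over 2 exons. The *Tyrobp* stretch begins at codon 92, on the plus strand of chr7:30415670-30417382, also over 2 exons. The *Fcgr2b* stretch begins at codon 317 in 1 exon on the minus strand of chr1:170961071-170961088. The ITAM pattern searched was 2 tyrosines, each followed by any 2 residues and a leucine or isoleucine, with 6 to 8 residues between these units. It occurred in 618 of 21850 coding genes (2.83%) and in none of the other 5 members. The shorter ITIM pattern (leucine, isoleucine, valine or serine, any residue, tyrosine, any 2 residues, then leucine, isoleucine or valine) is far less specific, with a match in 48.5% of coding genes, *Fcgr1*, *Fcgr4* and *Fcgrt* among them.

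The genes of *Fcgr2b*, *Fcgr4*, *Fcgr3* and *Fcer1g* follow each other on chromosome 1 (170958617-170976547, minus; 171018920-171029761, plus; 171051174-171064935, minus; 171229572-171234365, minus). The gaps between them measure 42372, 21412 and 164636 bases. *Fcgr1* lies on chromosome 3 (96282909-96293969, minus), and *Tyrobp* (30413760-30417585, plus) and *Fcgrt* (45092990-45103851, minus) on chromosome 7. All 7 are protein-coding. *Fcgr2b* and *Fcgr3* share 166 stretches of 50 transcript bases (2.92% and 9.58% of those of each gene), so some of their reads may have been split between them. Small genes overlap *Fcgr3* and *Fcgr4* on the same strand, and unnamed gene models overlap *Fcgr2b* and *Fcgrt* on the opposite strand.

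Promoters of 6 members were in the RefSeq table (GRCm38.p6), and *Tyrobp* was not. GAGGAA, the letters at the core of sites bound by the myeloid factor PU.1, was searched on both strands within 250 bases before and 50 after each start. It was found once in *Fcgr1*, *Fcgr3* and *Fcgr4* and not in *Fcgr2b*, *Fcer1g* or *Fcgrt*, against 28.3% of 32851 promoters. The 80 bases before the start are shown for the 3 activating receptors because these share the match, in capitals as its complement TTCCTC.
Fcgr1: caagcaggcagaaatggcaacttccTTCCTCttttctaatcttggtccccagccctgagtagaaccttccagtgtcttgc
Fcgr3: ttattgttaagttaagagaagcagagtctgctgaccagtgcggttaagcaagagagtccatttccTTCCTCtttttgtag
Fcgr4: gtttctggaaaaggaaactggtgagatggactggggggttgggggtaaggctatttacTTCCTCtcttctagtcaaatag

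These stretches lie at chr3:96293970-96294049 (minus), chr1:171059395-171059474 (minus) and chr1:171018846-171018925 (plus). The match begins 55, 15 and 22 bases before the start, and *Fcgr3* has a second listed start 9 bases away. A match is a description of letters and not a measured site.

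Of 120281 barcodes, 79389 cells with 238942003 counts passed the limits on quality. Between 5806 (vehicle, day 7) and 20571 cells (vehicle, day 1) passed per condition, with a median of 2071.5 to 2930 counts in 6 conditions and of 960 counts with entospletinib at day 14. The limit on ribosomal protein genes removed 29.0%, 12.1% and 24.0% of cells with entospletinib at days 1, 7 and 14, against 4.23% to 8.53% in the other 4 conditions. Of 105340 combinations of well barcodes, 13712 occurred in more than 1 sublibrary and were counted there as separate cells. Cell classes were rebuilt from markers, so they may differ from those of the study. There were 23846 macrophage-like cells in clusters 0, 2 and 6, 11833 monocyte-like cells in clusters 1 and 9, and 13838 neutrophil-like cells in clusters 3 and 5. Levels are given as CPM, a gene's counts per 1000000 counts, summed over the cells of a class in a pool.

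The first question was which cells hold each gene. Over the 7 pools, the activating receptors followed different orders. *Fcgr1*, the high-affinity receptor for monomeric IgG, was highest in macrophage-like cells at 96.0 ± 13.7 CPM (SD, 7 pools), followed by monocyte-like cells at 59.4 ± 22.4 CPM and cells like type 2 conventional dendritic cells (cDC2) at 28.3 ± 4.76 CPM. In neutrophil-like cells it stood at 5.42 ± 4.30 CPM. *Fcgr3*, a low-affinity receptor, was instead highest in neutrophil-like cells, at 200.2 ± 71.5 CPM with a range of 122 to 313. Macrophage-like cells had 122 ± 11.4 CPM and monocyte-like cells 102 ± 25.3 CPM. *Fcgr4*, which prefers IgG2a/c and IgG2b, stood at 67.1 ± 20.8 CPM in macrophage-like, 45.2 ± 20.1 CPM in monocyte-like and 44.2 ± 33.3 CPM in neutrophil-like cells. In lymphocyte-like classes these 3 genes were low, between 2.22 and 29.3 CPM on average.

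*Fcgr2b* reached from dendritic cells to B cells. It was at 275 ± 56.0 CPM in cDC2-like, 247 ± 47.5 CPM in macrophage-like, 198 ± 54.9 CPM in monocyte-like and 142 ± 23.7 CPM in B-cell-like cells, B cells being known to use this Fc gamma receptor alone. Cells like type 1 dendritic cells (cDC1) had 104 ± 16.6 CPM. Neutrophil-like cells, the class with the highest *Fcgr3*, had 57.8 ± 48.7 CPM of *Fcgr2b*, and that mean is raised by 162 CPM in the entospletinib day 14 pool, which rests on 4 counts in 40 cells.

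The ITAM chains were found in all myeloid classes and in NK-cell-like cells. *Fcer1g* was at 336 ± 173 CPM in neutrophil-like, 240.5 ± 73.2 CPM in macrophage-like, 234 ± 85.2 CPM in monocyte-like, 183 ± 58.6 CPM in NK-cell-like and 165 ± 56.0 CPM in cDC2-like cells. *Tyrobp* was at 406 ± 190.3 CPM in neutrophil-like cells and 295 ± 100.5 CPM in cells like plasmacytoid dendritic cells, where *Fcer1g* was at 96.6 ± 29.9 CPM. Monocyte-like, cDC2-like, macrophage-like and NK-cell-like cells had 202 ± 58.6, 164 ± 52.5, 149 ± 30.3 and 128 ± 70.4 CPM of *Tyrobp*. The NK-cell-like class thus held both chains while *Fcgr1*, *Fcgr3* and *Fcgr4* averaged 5.11, 18.1 and 2.22 CPM there.

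*Fcgrt* was found in leukocyte and kidney classes. It was at 52.3 ± 11.4 CPM in cDC1-like, 44.9 ± 9.85 CPM in macrophage-like, 32.4 ± 3.74 CPM in cDC2-like, 32.3 ± 6.71 CPM in endothelial-cell-like and 31.0 ± 13.5 CPM in proximal-tubule-like cells. Monocyte-like cells had 13.5 ± 5.02 CPM and neutrophil-like cells 2.13 ± 2.30 CPM.

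**Figure D1:**
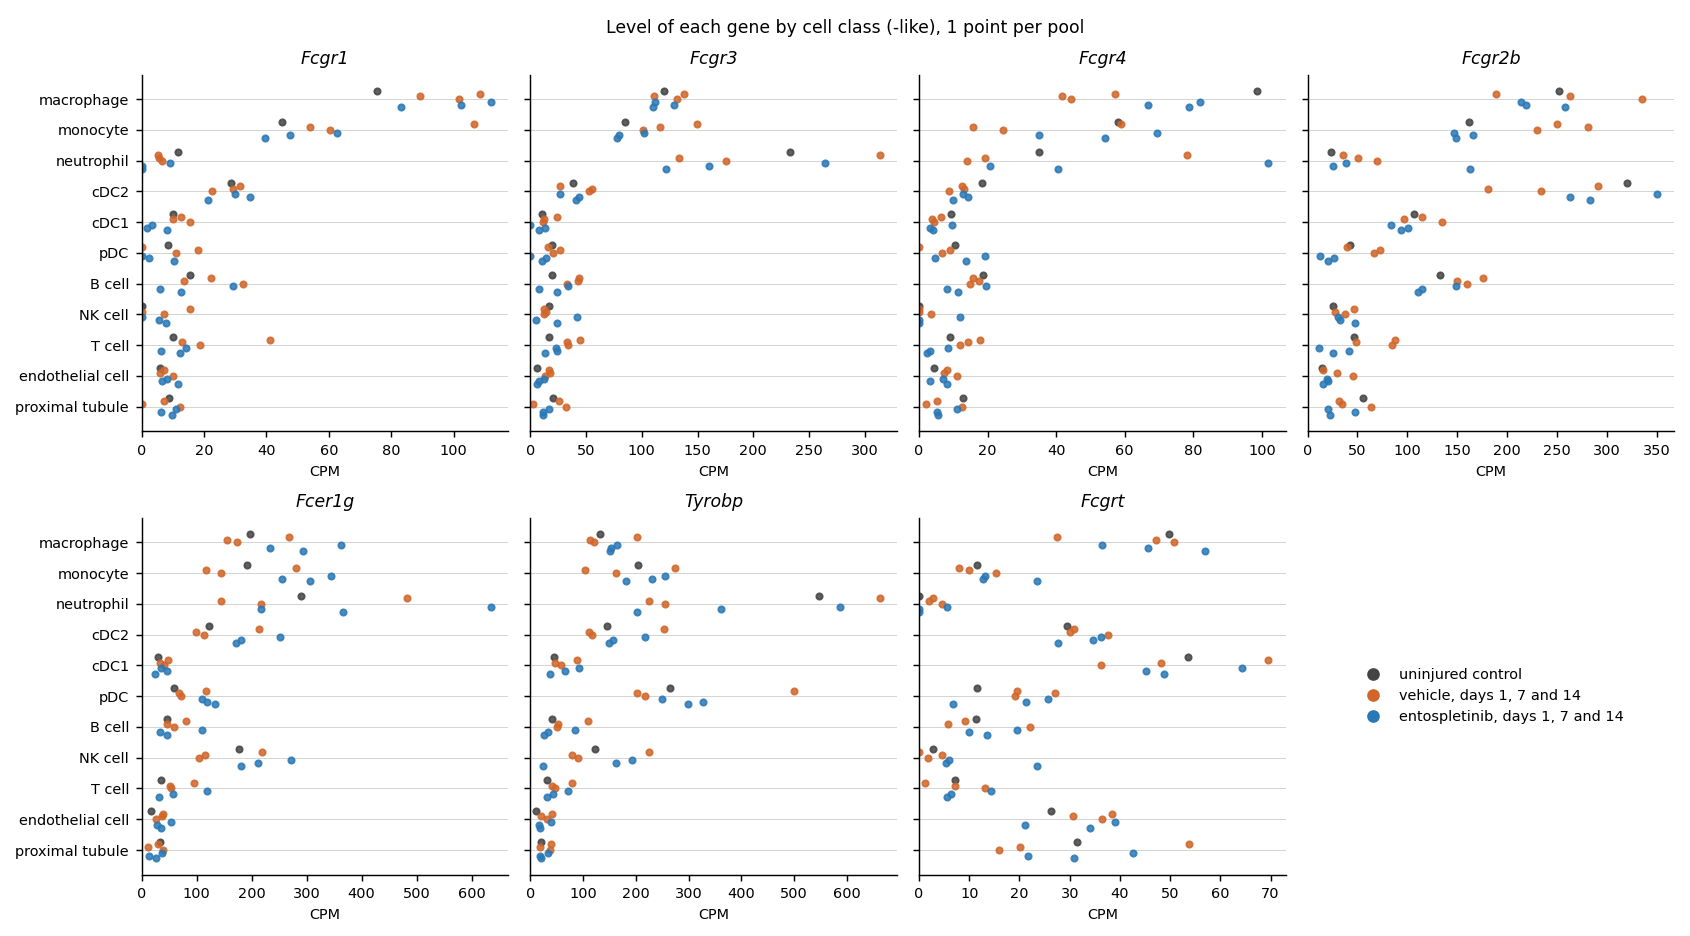
Level of each of the 7 genes (CPM, horizontal axis) in 11 of the cell classes (vertical axis), with 1 point per pool colored by treatment. *Fcgr3*, *Fcer1g* and *Tyrobp* reach their highest values in neutrophil-like cells (313, 636 and 663 CPM), and *Fcgr2b* in cDC2-like cells (351 CPM).

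These orders were tested between 6 leukocyte classes (macrophage-, monocyte-, neutrophil-, cDC2-, B-cell- and NK-cell-like) with an exact two-sided sign-flip permutation test over the 7 pools, on log2(CPM + 10), with Benjamini-Hochberg adjustment over 105 tests. The smallest p that 7 pools allow is 0.015625 (0.0231 adjusted), and 84 of the 105 tests passed 0.05. The pools differ in injury and treatment, so a pass says that a difference held across them. *Fcgr1* was higher in macrophage-like than in monocyte-like cells in 7 of 7 pools, by 0.65 ± 0.31 on this scale (exact permutation test, adjusted p = 0.0231). *Fcgr3* was higher in neutrophil-like than in macrophage-like cells in 7 of 7 pools, by 0.61 ± 0.44 (exact permutation test, adjusted p = 0.0231). *Tyrobp* was higher in neutrophil-like than in monocyte-like cells in 7 of 7 pools, by 0.89 ± 0.44 (exact permutation test, adjusted p = 0.0231). In the entospletinib day 14 pool, *Fcgr3* and *Tyrobp* of neutrophil-like cells rest on 3 and 5 counts in 40 cells. With these cells left out, an alternative added after the data were seen, *Fcgr3* was higher in neutrophil-like than in macrophage-like cells in 6 of 6 pools by 0.69 ± 0.43, and *Tyrobp* higher than in monocyte-like cells in 6 of 6 by 1.01 ± 0.32 (exact permutation test, adjusted p = 0.0400 for both, from p = 0.03125, the smallest that 6 pools allow). *Fcgr4* was higher in macrophage-like than in monocyte-like cells in 6 of 7 pools, by 0.53 ± 0.35 (exact permutation test, adjusted p = 0.0391).

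Several neighbours in these orders were not separated by the test. The exact permutation test left macrophage-like and monocyte-like cells undecided for *Fcgr3* (0.26 ± 0.28, adjusted p = 0.0901), *Fcgr2b* (0.33 ± 0.41, adjusted p = 0.105) and *Fcer1g* (0.07 ± 0.18, adjusted p = 0.422). The same held for *Fcgr4* between monocyte-like and neutrophil-like cells (0.14 ± 0.47, adjusted p = 0.434, exact test) and for *Fcgr2b* between cDC2-like and macrophage-like cells (0.14 ± 0.48, adjusted p = 0.462, exact test). For *Fcer1g* the lead of neutrophil-like over macrophage-like cells was 0.37 ± 0.38, seen in 5 of 7 pools (adjusted p = 0.0746, exact test). For *Fcgrt* that of macrophage-like over cDC2-like cells was 0.36 ± 0.33, seen in 6 of 7 pools (adjusted p = 0.0579, exact test).

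Detection in single cells was read with cells thinned to 500 counts each, so that depth was equal, beside T-cell-like cells, which should lack most of these genes. A *Tyrobp* count was then present in 6.99% of macrophage-like cells, 11.5% of monocyte-like cells and 23.5% of neutrophil-like cells, against 1.40% of T-cell-like cells. For *Fcer1g* the shares were 11.1%, 13.4% and 18.9% against 1.53%, and for *Fcgr3* they were 6.13%, 5.99% and 11.9% against 0.892%. *Fcgr2b* was found in 12.01% of macrophage-like, 11.96% of cDC2-like and 6.01% of B-cell-like cells, against 1.40% of T-cell-like cells, and the 1.85% of neutrophil-like cells lay below the 2.04% of proximal-tubule-like cells. *Fcgr1* was found in 4.57% of macrophage-like and 4.26% of monocyte-like cells against 0.459%, and the 0.168% of neutrophil-like cells is at background. *Fcgrt* was found in 2.40% of cDC1-like and 2.36% of macrophage-like cells against 0.204% of T-cell-like cells.

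The next question was how the level of these genes within a class differs between vehicle and control and between entospletinib and vehicle. Ratios are log2 ratios of CPM relative to the median gene, taken over genes whose mean in that comparison reached 50 CPM. A member was called when it passed that limit, differed by at least 1.5-fold and had the same direction in all 8 sublibraries. A gene under 50 CPM in one pool of a pair passed the limit only through the other pool, so its being tested at all depended on the difference, and such calls are given as descriptions. This was so for 4 of the 15 calls among the members described below, *Fcgr4* in macrophage-like cells with vehicle over control at days 7 and 14 and entospletinib over vehicle at day 14, and *Fcgr1* in monocyte-like cells with vehicle over control at day 1. The medians themselves were 0.15, −0.28 and −0.08 in macrophage-like and 0.18, −0.27 and −0.08 in monocyte-like cells for vehicle over control at days 1, 7 and 14. For entospletinib over vehicle they were −0.11, 0.31 and 0.07 and −0.19, 0.38 and 0.06.

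In macrophage-like cells with vehicle, *Fcgr4* was lower than in the control on all 3 days. It was at 98.7 ± 2.98 CPM (SD) in the control, 57.3 ± 7.32, 41.8 ± 9.24 and 44.4 ± 5.04 CPM in the vehicle pools of days 1, 7 and 14, and 82.1 ± 12.2, 66.9 ± 4.58 and 78.6 ± 16.6 CPM in the entospletinib pools of the same days. The control pool was highest, the 3 vehicle pools were lowest, and the 3 entospletinib pools lay between them. Relative to all genes, vehicle over control gave −0.94 ± 0.17, −0.96 ± 0.29 and −1.07 ± 0.14, or 1.92-fold, 1.94-fold and 2.10-fold lower, each in 8 of 8 sublibraries. Of the 7 members, 6 passed the 50 CPM limit at days 1 and 7 and all 7 at day 14, and *Fcgr4* was the 1 called on each day. Of all genes tested, 31.0%, 10.5% and 13.5% were called on these days. Entospletinib over control gave −0.29 ± 0.25, −0.58 ± 0.12 and −0.32 ± 0.31 for *Fcgr4*.

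*Fcgr1* was higher than in the control in all 3 vehicle pools by less than 1.5-fold. It was at 75.4 ± 5.41 CPM in the control, 108 ± 12.9, 89.3 ± 8.86 and 102 ± 7.43 CPM in the vehicle pools, and 112 ± 9.77, 102 ± 11.7 and 83.0 ± 16.5 CPM in the entospletinib pools, in the order of days 1, 7 and 14. The relative ratios of vehicle over control were 0.37 ± 0.25, 0.53 ± 0.22 and 0.51 ± 0.14. *Fcgr3* stayed between 109.9 and 138 CPM in all 7 pools, with relative ratios of 0.04, 0.16 and 0.22 for vehicle over control. The 3 activating receptors of macrophage-like cells therefore gave ratios of different sign for vehicle over control.

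*Fcgr2b* in macrophage-like cells was on different sides of the control at different days. It was at 252 ± 17.2 CPM in the control, 189 ± 18.4, 263 ± 30.6 and 335 ± 12.7 CPM in the vehicle pools, and 214 ± 20.5, 219 ± 17.5 and 258 ± 18.1 CPM in the entospletinib pools, in the order of days 1, 7 and 14. The relative ratio of vehicle over control was −0.57 ± 0.18, 0.34 ± 0.22 and 0.50 ± 0.07 on these days, each in 8 of 8 sublibraries and each under 1.5-fold. With cells gated one by one on markers, the day 1 value was −0.16.

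The chains were highest at day 1 with either treatment. *Fcer1g* in macrophage-like cells was at 197 ± 7.96 CPM in the control, 268 ± 22.2, 155 ± 16.5 and 174 ± 5.78 CPM in the vehicle pools and 363 ± 37.8, 234 ± 13.1 and 294 ± 25.2 CPM in the entospletinib pools. On every day the entospletinib pool was above the vehicle pool. Relative to all genes, vehicle over control gave 0.29 ± 0.14, −0.06 ± 0.19 and −0.09 ± 0.06. *Tyrobp* was at 132 ± 9.61 CPM in the control, 203 ± 16.3, 113 ± 10.0 and 121 ± 5.20 CPM in the vehicle pools, and 165 ± 14.1, 154 ± 8.57 and 151 ± 17.6 CPM in the entospletinib pools. At day 1 the vehicle pool was thus the higher of the pair for *Tyrobp*, and at days 7 and 14 the lower. The day 1 order was not stable. The relative ratio of entospletinib over vehicle was −0.19 and turned slightly positive without the limit on ribosomal protein genes. Its ratios of vehicle over control were 0.46 ± 0.16, 0.05 ± 0.16 and −0.04 ± 0.14.

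*Fcgrt* was at 49.8 ± 7.38 CPM in the control, 27.5 ± 5.16, 47.2 ± 13.2 and 50.8 ± 3.01 CPM in the vehicle pools and 36.4 ± 4.94, 45.6 ± 7.80 and 56.9 ± 6.66 CPM in the entospletinib pools. The lowest pools were those of day 1. Its day 1 ratio of vehicle over control was −1.01 ± 0.35 in 8 of 8 sublibraries, but the mean of that pair was under 50 CPM and it was not called. *B2m*, its partner chain, was at 534 ± 19.4 CPM in the control, 768 ± 43.2, 420.1 ± 47.3 and 524 ± 18.5 CPM in the vehicle pools and 727 ± 49.2, 532 ± 32.3 and 453 ± 37.1 CPM in the entospletinib pools, so both day 1 pools were its highest.

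**Figure D2:**
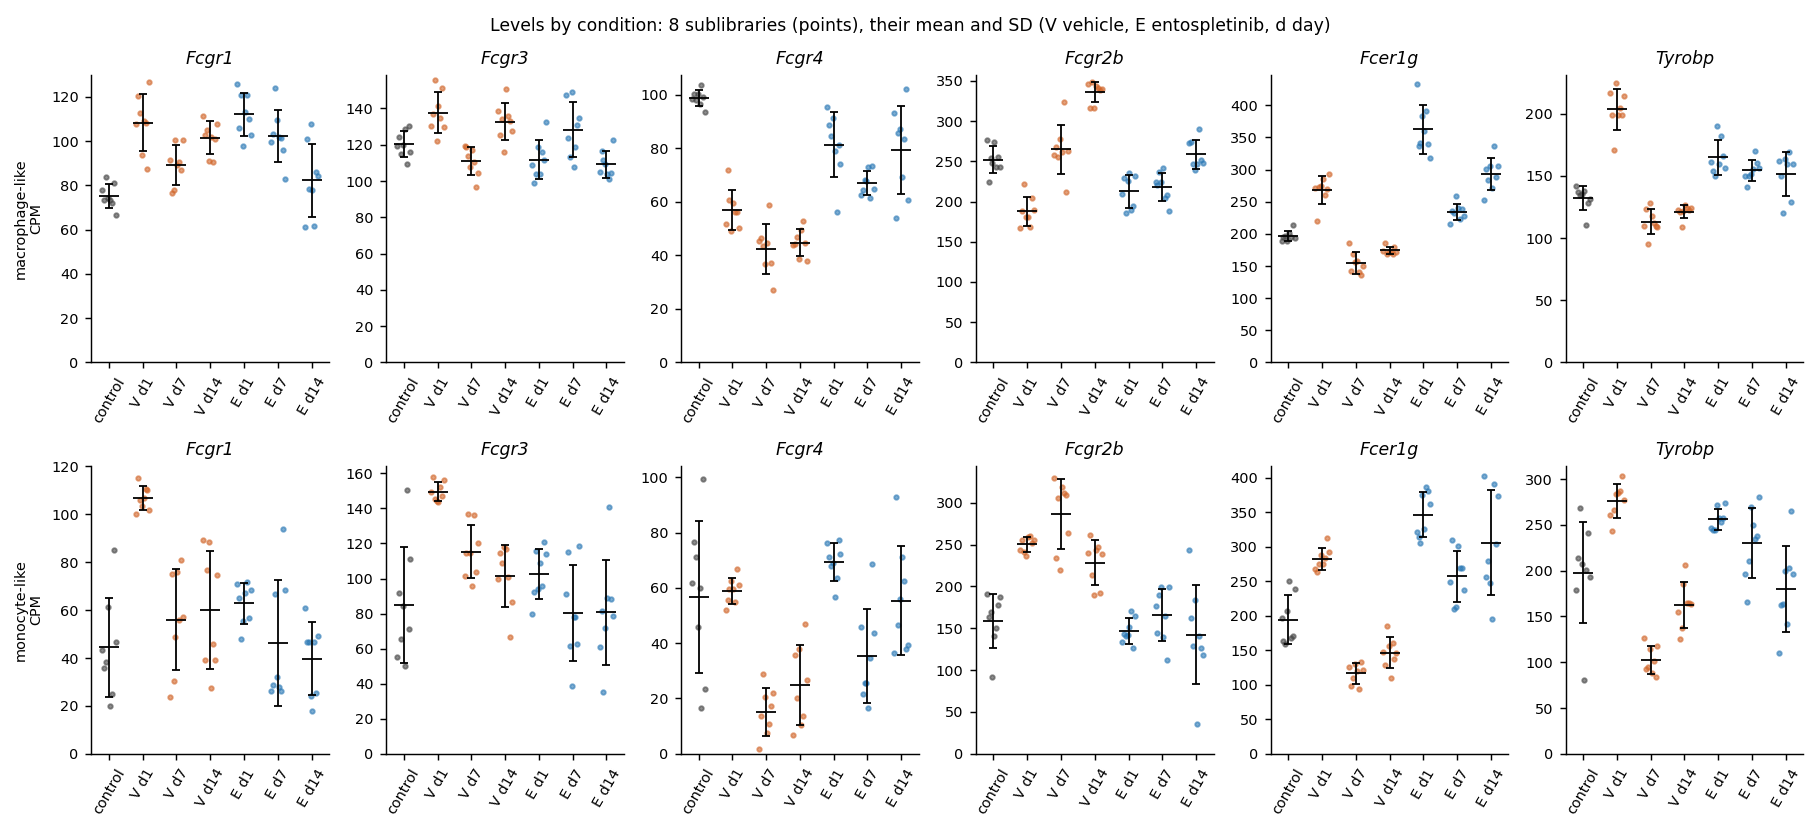
Levels (CPM, vertical axis) of the 4 Fc gamma receptors and the 2 chains in macrophage-like (upper row) and monocyte-like (lower row) cells in each condition (horizontal axis; V vehicle, E entospletinib, d day), with 8 sublibraries as points and their mean and SD. In macrophage-like cells *Fcgr4* is highest in the control (98.7 CPM) and lowest with vehicle at days 7 and 14 (41.8 and 44.4 CPM), and *Fcer1g* is highest with entospletinib at day 1 (363 CPM).

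Entospletinib over vehicle in macrophage-like cells gave 3 calls among the members. At day 14, *Fcer1g* was higher by 0.68 ± 0.14 (1.60-fold) and *Fcgr4* by 0.75 ± 0.33 (1.68-fold), each in 8 of 8 sublibraries, where 9.72% of all genes were called and 7 members passed the limit. At day 1, *Fcgr4* was higher by 0.63 ± 0.29 (1.55-fold), where 3.42% of all genes were called and 6 members passed the limit. That call did not hold without sublibrary s1 (0.57) or s4 (0.58) or with doublets removed (0.58). At day 7 no member was called out of 6, against 4.41% of all genes. *Fcer1g* had 0.55 ± 0.19 at day 1 (8 of 8 sublibraries) and 0.28 ± 0.19 at day 7 (7 of 8), and *Fcgr4* had 0.37 ± 0.36 at day 7 (7 of 8). *Fcgr2b* had 0.29 ± 0.23 at day 1, −0.58 ± 0.21 at day 7 and −0.45 ± 0.11 at day 14, the last 2 in 8 of 8 sublibraries and under 1.5-fold, and cells gated one by one gave −0.12 at day 1. With TMM scaling the day 14 ratio of *Fcer1g* was 0.53 and the day 1 ratio of *Fcgr4* 0.57, and both calls were lost. Both were also lost with no gene filter. The *Fcer1g* call was lost in cells with over 500 genes as well, and was kept in 11 of 16 alternatives. Without the limit on ribosomal protein genes 5 members were called, with *Fcer1g* added at day 1 (0.61) and *Fcgr2b* at day 7 (−0.60). The shares of all genes above belong to the main setting, so this count has none to be set against.

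Neutrophil markers were detected in these cells as well. The summed level of 10 neutrophil markers, all detected, was 228 CPM in macrophage-like cells of the control, 926, 474 and 577 CPM in the vehicle pools and 542, 274 and 296 CPM in the entospletinib pools, against 12410 to 36651 CPM in neutrophil-like cells. It was lower with entospletinib than with vehicle on each day, the opposite order to *Fcer1g*. Monocyte markers (10 of 10 detected) were also lower with entospletinib on each day, at 280.3 CPM in the control, 329, 667 and 749 CPM in the vehicle pools and 277, 617 and 389 CPM in the entospletinib pools. Endothelial, proximal tubule, cDC2, B cell and T cell markers had the same order as *Fcer1g* on each day. The summed level of 10 endothelial markers was 173 CPM in the control, 139, 87.7 and 116 CPM in the vehicle pools and 159, 121 and 171 CPM in the entospletinib pools. In the same order of pools, 10 proximal tubule markers had 187 CPM, then 102, 76.3 and 77.0 CPM, then 106, 97.7 and 173 CPM, and 6 cDC2 markers had 269 CPM, then 304, 310 and 326 CPM, then 359, 425 and 364 CPM. All markers of these 3 lists were detected in every pool. The part of these lists in the ratios was not tested.

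The mix of macrophage-like clusters also differed between pools. Cluster 0 held 67.7% of these cells in the control, 9.46%, 46.3% and 43.0% in the vehicle pools and 18.3%, 62.4% and 33.8% in the entospletinib pools, and cluster 2 held 86.3% with vehicle at day 1. At day 14 cluster 6, whose cells had a median of 1125.5 counts, made up 20.3% of the vehicle pool's macrophage-like cells and 57.4% of those of the entospletinib pool, while the share of cluster 2 was 36.7% and 8.83%. Within cluster 2, *Fcgr4* was lower with vehicle than in the control by −0.94 ± 0.46, −1.09 ± 0.76 and −1.20 ± 0.29 at days 1, 7 and 14, in 8 of 8 sublibraries each. Within cluster 0 the ratios were −0.38 ± 0.56 (6 of 8), −0.92 ± 0.24 and −0.95 ± 0.30 (8 of 8 for both). Within cluster 6 they were −1.17 ± 2.22, −0.51 ± 0.84 and −0.95 ± 0.83, in 6, 5 and 6 of 8 sublibraries. What part the mix of clusters had in the ratios over all macrophage-like cells was not tested. For entospletinib over vehicle at day 14, *Fcer1g* had 0.57 ± 0.22 in cluster 0, 0.40 ± 0.28 in cluster 2 and 0.67 ± 0.33 in cluster 6. *Fcgr4* had 0.68 ± 0.62 (6 of 8 sublibraries), 0.40 ± 0.49 (6 of 8) and 0.66 ± 0.33 (8 of 8) in the same clusters.

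In monocyte-like cells other members were called. *Fcgr1* was at 44.9 ± 20.8 CPM in the control, 107 ± 5.11, 53.9 ± 21.1 and 60.3 ± 24.7 CPM in the vehicle pools and 62.6 ± 8.59, 47.7 ± 26.3 and 39.7 ± 15.2 CPM in the entospletinib pools. The vehicle day 1 pool stood above all others, and its relative ratio to the control was 1.07 ± 0.68 (2.09-fold, 8 of 8 sublibraries). It was the 1 member called on that day of 6 that passed the limit, against 17.1% of all genes. The control rests on 54 *Fcgr1* counts in 344 cells. With cells gated one by one on markers the ratio was 0.95 in 7 of 8 sublibraries and was not called. TMM scaling also called *Fcgr3* (0.85), *Fcgr2b* (0.65) and *Fcer1g* (0.59) on that day, and the 17.1% holds for the main setting alone.

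*Fcgr2b* and *Fcgr3* were the members called in monocyte-like cells with vehicle at day 7, 2 of 4 that passed the limit, against 27.4% of all genes. *Fcgr2b* was at 162 ± 32.1 CPM in the control, 249.7 ± 8.91, 282 ± 41.5 and 229.6 ± 26.5 CPM in the vehicle pools and 146 ± 15.1, 166 ± 31.5 and 148 ± 59.5 CPM in the entospletinib pools. All 3 vehicle pools were above the control and all 3 entospletinib pools were close to it. Vehicle over control gave 0.44 ± 0.32, 1.07 ± 0.28 (2.10-fold) and 0.58 ± 0.30 in 8 of 8 sublibraries each. *Fcgr3* was at 84.8 ± 33.1 CPM in the control, 149.5 ± 5.51, 116 ± 15.3 and 101 ± 17.6 CPM in the vehicle pools and 102 ± 14.2, 79.5 ± 27.3 and 77.9 ± 30.0 CPM in the entospletinib pools, with a relative ratio of 0.73 ± 0.41 at day 7. At day 14 none of 5 members was called, against 7.01% of all genes.

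Entospletinib over vehicle in monocyte-like cells gave 6 calls, lower for *Fcgr2b* and *Fcgr3* and higher for the chains. *Fcgr4*, also a receptor, had a higher CPM with entospletinib than with vehicle on each day and was not called. *Fcgr2b* was lower by −1.14 ± 0.41 at day 7 and −0.69 ± 0.84 at day 14, or 2.21-fold and 1.61-fold, and *Fcgr3* by −0.93 ± 0.56 (1.90-fold) at day 7. *Fcer1g* was higher by 0.75 ± 0.33 (1.68-fold) at day 7 and 1.02 ± 0.32 (2.02-fold) at day 14, and *Tyrobp* by 0.77 ± 0.30 (1.71-fold) at day 7. At day 7 this was 4 of 5 members past the limit, against 22.7% of all genes, and at day 14 it was 2 of 4, against 6.19%. At day 1 none of 6 members was called, against 8.96% of all genes, although *Fcer1g* (0.48 ± 0.09), *Fcgr4* (0.43 ± 0.18), *Fcgr2b* (−0.58 ± 0.13), *Fcgr1* (−0.58 ± 0.22) and *Fcgr3* (−0.36 ± 0.22) each had 1 direction in 8 of 8 sublibraries. The day 14 call of *Fcgr2b* did not hold without sublibrary s5 (−0.57) or with doublets removed (−0.64), and cells gated one by one gave −0.26. Such a gate also ended the *Fcer1g* calls at day 7 (0.52) and day 14 (0.82), with 7 of 8 sublibraries in that direction for both. With all cells thinned to 500 counts, 1 of these 6 calls held (*Fcer1g* at day 14, 1.58). At day 7 the thinned ratio was 0.05 for *Tyrobp* and 0.52 for *Fcer1g*, both under 1.5-fold. It was −1.38 for *Fcgr2b* and −1.14 for *Fcgr3*, no smaller than over all counts but with 7 of 8 sublibraries in that direction. At day 14 it was −0.52 for *Fcgr2b*. Thinning kept none of the 3 calls of vehicle over control in monocyte-like cells, where the ratios were 1.32 for *Fcgr1* (7 of 8 sublibraries), 0.49 for *Fcgr2b* and 0.64 for *Fcgr3* (5 of 8). In macrophage-like cells it kept 2 of the 3 calls of vehicle over control (*Fcgr4* at days 7 and 14, with −0.68 at day 1) and none of the 3 for entospletinib over vehicle, where *Fcgr4* had 0.18 at day 1 and 0.88 at day 14 (7 of 8) and *Fcer1g* had 0.57 at day 14.

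The levels behind these ratios were, for *Fcer1g*, 191 ± 35.6 CPM in the control, 282 ± 15.8, 116 ± 14.7 and 145 ± 22.6 CPM in the vehicle pools and 344 ± 33.0, 255 ± 37.1 and 306 ± 75.4 CPM in the entospletinib pools. Vehicle at days 7 and 14 was below the control, and all 3 entospletinib pools were above it. *Tyrobp* was at 204 ± 55.4 CPM in the control, 275 ± 18.8, 104 ± 15.6 and 163 ± 25.4 CPM in the vehicle pools and 256 ± 11.4, 231 ± 38.4 and 182 ± 47.1 CPM in the entospletinib pools. *Fcgr4* was at 58.2 ± 27.5 CPM in the control, 59.0 ± 4.74, 15.9 ± 8.66 and 24.6 ± 14.5 CPM in the vehicle pools and 69.5 ± 6.73, 35.0 ± 17.0 and 54.4 ± 19.7 CPM in the entospletinib pools. As in macrophage-like cells, *Fcgr4* was lowest with vehicle at days 7 and 14, but its mean in those pairs was under 50 CPM and 7 of 8 sublibraries gave its direction. The 10 macrophage markers, all detected, summed to 1636 CPM in monocyte-like cells of the control. They were at 1886, 2114 and 2400 CPM in the vehicle pools and 1722, 2272 and 1679 CPM in the entospletinib pools. All vehicle pools were above the control, and entospletinib was below vehicle at days 1 and 14 and above it at day 7. The 10 neutrophil markers summed to 470.4 CPM in monocyte-like cells of the control, 1224, 472 and 604 CPM in the vehicle pools and 780.3, 457 and 469 CPM in the entospletinib pools, with 9 of 10 detected in the entospletinib day 7 pool and all 10 elsewhere. In the same order of pools, 10 endothelial markers summed to 313 CPM, then 154, 77.2 and 143 CPM and 236, 204 and 259 CPM, higher with entospletinib on each day, as *Fcer1g* was. The 10 proximal tubule markers summed to 199 CPM, then 61.6, 51.4 and 54.3 CPM and 56.7, 88.3 and 166 CPM. The 6 cDC2 markers summed to 394 CPM, then 286, 172 and 340 CPM and 341, 309 and 297 CPM. All of these were detected in every pool. In that order, 9 B cell markers, with 7 or more detected, summed to 85.6 CPM, then 103, 62.6 and 94.6 CPM and 109, 89.1 and 113 CPM. These too were higher with entospletinib on each day. T cell markers were higher with entospletinib than with vehicle at days 1 and 14 and lower at day 7. The part of these lists in the ratios was not tested.

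The 2 monocyte-like clusters differed in these genes when summed over all conditions. Cluster 9, with *Fn1* and *Pdpn* among its leading genes, had 150.4 CPM of *Fcgr1*, 335 CPM of *Fcgr2b* and 34.3 CPM of *Fcgr4*. Cluster 1, led by *Ace* and *Adgre4*, had 53.8, 168 and 67.2 CPM. These levels do not separate cluster from condition. Of the 3561 cells of cluster 9, 2457 came from vehicle at day 1 and 4 from the control. Cluster 9 held 1.16% of monocyte-like cells in the control, 36.7%, 68.6% and 20.8% in the vehicle pools and 13.6%, 8.16% and 8.06% in the entospletinib pools. Within cluster 1 at day 7, entospletinib over vehicle gave −1.10 ± 0.55 for *Fcgr2b* in 8 of 8 sublibraries. *Fcgr3* had −0.71 ± 0.50 there (7 of 8), *Tyrobp* 0.43 ± 0.26 (8 of 8) and *Fcer1g* 0.32 ± 0.54 (6 of 8). At day 14 *Fcer1g* had 1.04 ± 0.38 in 8 of 8 sublibraries within cluster 1, while *Fcgr2b* had −0.23 ± 0.85 (6 of 8). The vehicle day 1 ratio of *Fcgr1* to the control was 0.17 ± 0.69 within cluster 1, against 1.07 over both clusters. What part the mix of clusters had in these ratios was not tested.

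**Figure D3:**
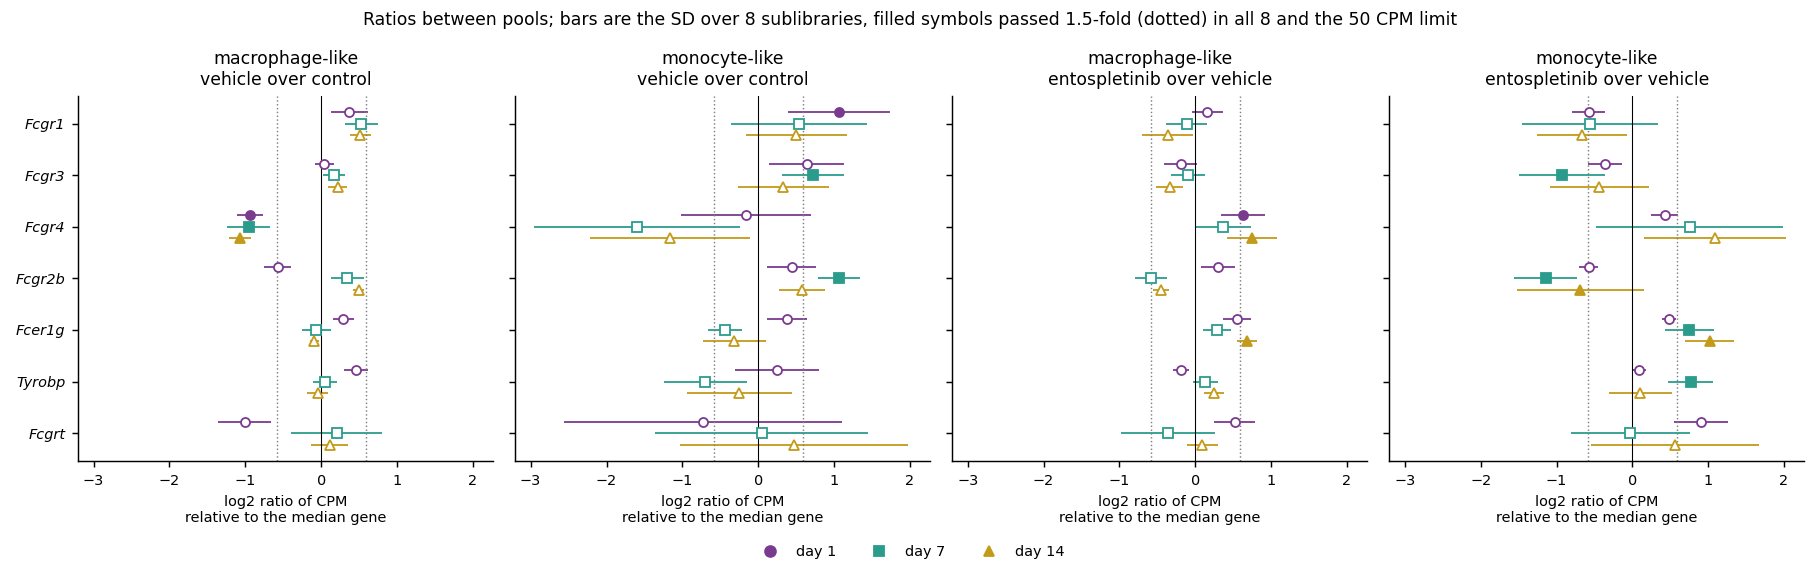
Log2 ratios of CPM relative to the median gene (horizontal axis) for the 7 members (vertical axis) in macrophage-like and monocyte-like cells, for vehicle over control and entospletinib over vehicle at days 1, 7 and 14, with bars for the SD over 8 sublibraries and filled symbols for called members. *Fcgr4* is filled at all 3 days for vehicle over control in macrophage-like cells (−0.94, −0.96 and −1.07), and *Fcgr2b* and *Fcer1g* lie on opposite sides of 0 for entospletinib over vehicle in monocyte-like cells.

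Neutrophil-like cells gave no call among the members on any day. The limit was passed by 4, 3 and 3 members for vehicle over control and by 4, 3 and 4 for entospletinib over vehicle. Of all genes, 7.59%, 11.9% and 9.40% were called for vehicle over control at days 1, 7 and 14 and 11.8%, 10.4% and 1.66% for entospletinib over vehicle. The control held 65 of these cells and the entospletinib pools of days 7 and 14 held 117 and 40, so only the day 1 pair of 7795 and 2167 cells is well measured. In that pair *Fcer1g* was at 482 ± 17.1 CPM in the vehicle pool and 636 ± 33.2 CPM in the entospletinib pool, a relative ratio of 0.50 ± 0.04 in 8 of 8 sublibraries. *Fcgr4* was at 78.2 ± 8.01 and 102 ± 19.0 CPM (0.48 ± 0.30, 8 of 8), *Fcgr3* at 313 ± 14.2 and 264 ± 26.6 CPM (−0.15 ± 0.12, 7 of 8) and *Tyrobp* at 663 ± 36.3 and 588 ± 42.1 CPM (−0.07 ± 0.14, 4 of 8). With vehicle at days 7 and 14 all 4 were lower than at day 1, at 144 and 217 CPM for *Fcer1g*, 19.4 and 14.0 CPM for *Fcgr4*, 134 and 175 CPM for *Fcgr3* and 225 and 255 CPM for *Tyrobp*. Cluster 3 held most of the neutrophil-like cells at those days (1619 of 1715 and 1746 of 1939) and cluster 5 the larger part at day 1 (4095 of 7795). Summed over all conditions, cluster 5 had 536 CPM of *Fcer1g* and 85.9 CPM of *Fcgr4*, and cluster 3 had 342 and 51.1 CPM. These levels do not separate cluster from day. Of the 6178 cells of cluster 5, 4095 and 1678 came from the vehicle and entospletinib pools of day 1. The day 1 pair also differed in its mix of clusters, with cluster 5 at 52.5% of the vehicle and 77.4% of the entospletinib cells. Within cluster 5 the day 1 ratio of entospletinib over vehicle was 0.48 ± 0.10 for *Fcer1g* (8 of 8 sublibraries) and 0.32 ± 0.24 for *Fcgr4* (6 of 8), and within cluster 3 it was 0.35 ± 0.30 and 0.77 ± 0.64 (7 of 8 for both).

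In cDC2-like cells the level of *Fcgr2b* was 320.3 ± 36.1 CPM in the control, 291 ± 47.3, 181 ± 24.4 and 234 ± 17.4 CPM in the vehicle pools and 351 ± 103, 264 ± 35.1 and 284 ± 79.2 CPM in the entospletinib pools. The lowest pools were the vehicle pools of days 7 and 14, where macrophage-like cells had more *Fcgr2b* than in the control. *Fcer1g* in these cells was at 123 ± 21.2 CPM in the control, 214 ± 35.7, 98.7 ± 21.2 and 113 ± 8.98 CPM in the vehicle pools and 251 ± 51.9, 181 ± 34.2 and 171 ± 48.8 CPM in the entospletinib pools. As in macrophage-like and monocyte-like cells, the entospletinib pool was the higher of the pair on each day.

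The balance of activating to inhibitory receptors was read as the ratio of *Fcgr1*, *Fcgr3* and *Fcgr4* counts to *Fcgr2b* counts within 1 pool, which needs no scaling between pools. The counts are not corrected for gene length, so only changes of the ratio between pools can be read. In macrophage-like cells it was 1.17 (exact 95% interval 1.11 to 1.22) in the control, 1.61 (1.51 to 1.71), 0.920 (0.861 to 0.983) and 0.829 (0.800 to 0.858) with vehicle at days 1, 7 and 14. The entospletinib pools had 1.43 (1.33 to 1.54), 1.36 (1.28 to 1.45) and 1.05 (0.966 to 1.15). Vehicle was above the control at day 1 and below it at days 7 and 14, and at those later days entospletinib was above vehicle with intervals that did not overlap. These intervals cover counting error only.

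From the control to vehicle at day 14 in macrophage-like cells, the *Fcgr4* term of this ratio differed most. *Fcgr3* over *Fcgr2b* was 0.477 and 0.393 in these 2 pools and *Fcgr1* over *Fcgr2b* 0.299 and 0.303. For *Fcgr4* over *Fcgr2b*, in macrophage-like cells it was 0.391 in the control, 0.304, 0.159 and 0.132 with vehicle, and the entospletinib pools had 0.384, 0.306 and 0.305. In monocyte-like cells it was 0.359, then 0.236, 0.0564 and 0.107 with vehicle, and the entospletinib pools had 0.474, 0.211 and 0.366. In both classes vehicle at days 7 and 14 gave the lowest values, and the intervals of the entospletinib pool lay above those of the vehicle pool on each day. *Fcer1g* over *Tyrobp* in macrophage-like cells was 1.48 in the control, 1.32, 1.37 and 1.44 with vehicle, and the entospletinib pools had 2.20, 1.52 and 1.94. At days 1 and 14 the intervals with entospletinib (2.04 to 2.38 and 1.76 to 2.14) lay above those of the other 5 pools, while the day 7 interval (1.41 to 1.64) overlapped those of the control and of vehicle at days 7 and 14.

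**Figure D4:**
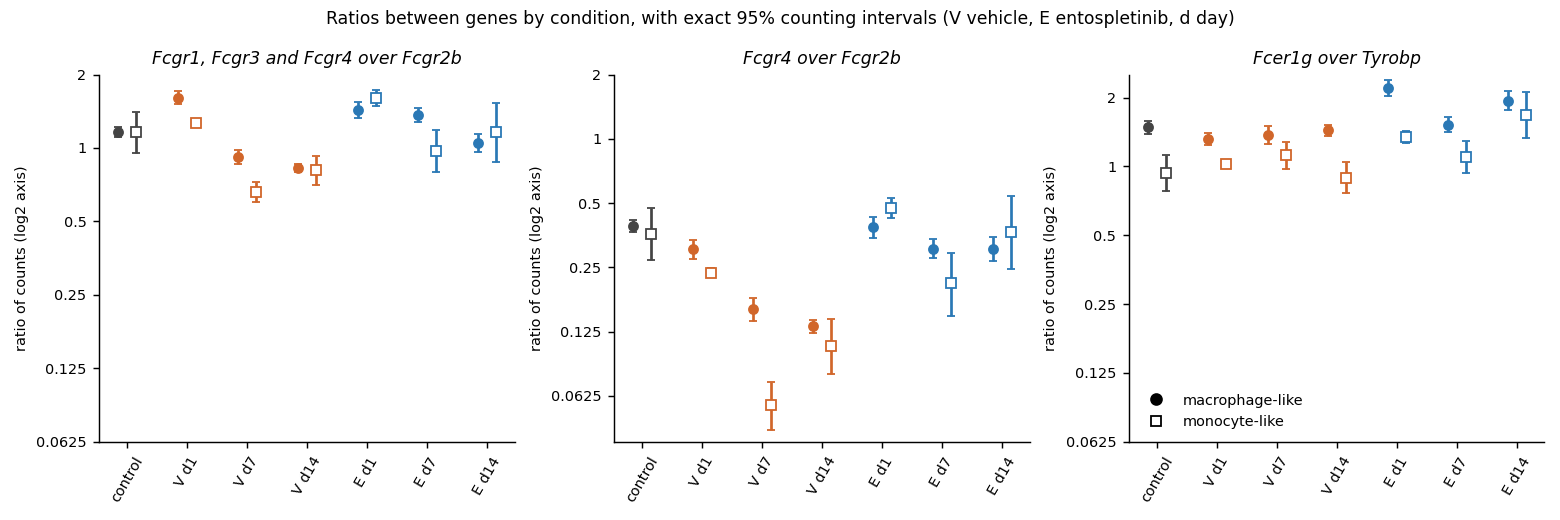
Ratios between counts of member genes (vertical axis, log2 scale) in each condition (horizontal axis) in macrophage-like (circles) and monocyte-like (squares) cells, with exact 95% counting intervals. *Fcgr4* over *Fcgr2b* is lowest with vehicle at days 7 and 14 (0.159 and 0.132 in macrophage-like cells), and *Fcer1g* over *Tyrobp* in macrophage-like cells is highest with entospletinib at day 1 (2.20).

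The classes that held each gene's counts differed between pools. Such a share mixes the number of cells of a class with the RNA in each cell, and fewer cells of a type and less RNA per cell cannot be told apart in it. In the control, macrophage-like cells held 73.9% of *Fcgr1*, 75.1% of *Fcgr3*, 78.8% of *Fcgr4* and 62.5% of *Fcgr2b* counts, with 32.8% of all counts. With vehicle at day 1, monocyte-like cells held 72.4% of *Fcgr1*, 68.9% of *Fcgr2b* and 51.6% of *Fcgr4* with 46.2% of all counts, and neutrophil-like cells held 39.2% of *Fcgr3* and 41.4% of *Tyrobp* with 19.0% of all counts. With entospletinib at day 1, macrophage-like cells held 49.3% of *Fcgr1* and 38.0% of *Fcgr2b* with 22.4% of all counts. Monocyte-like cells then held 33.8% of *Fcgr3* and 37.1% of *Tyrobp* with 30.04% of all counts, and neutrophil-like cells 30.9% and 30.1% with 10.6%. By day 14 macrophage-like cells again held most of the Fc gamma receptor counts, between 61.8% and 74.1% with vehicle and between 66.8% and 76.7% with entospletinib. For *Fcgrt*, macrophage-like cells held 49.8% of counts in the control and 24.1% with vehicle at day 1, when the gene stood at 13.9 ± 0.881 CPM over all cells against 32.8 ± 3.63 CPM in the control.

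**Figure D5:**
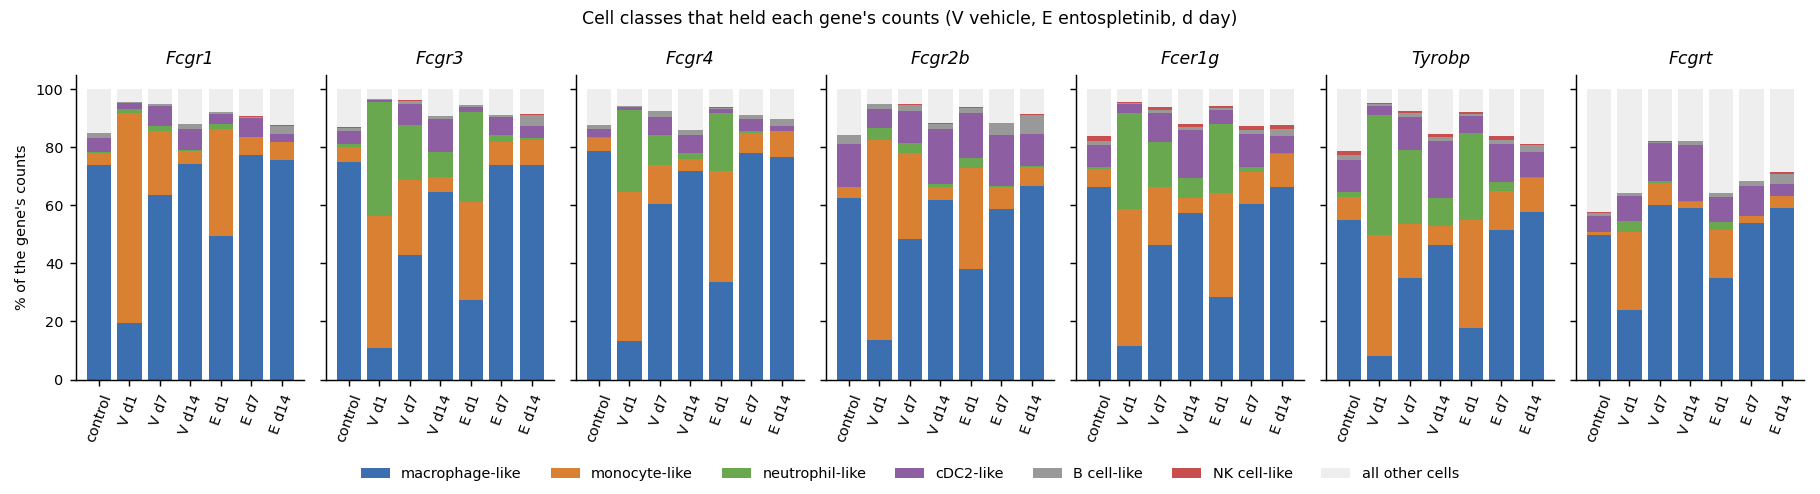
Share of each gene's counts (percent, vertical axis, stacked bars) held by 6 cell classes and by all other cells in each condition (horizontal axis; V vehicle, E entospletinib, d day). Macrophage-like cells hold most Fc gamma receptor counts in the control (62.5% to 78.8%), and monocyte-like cells hold 72.4% of *Fcgr1* with vehicle at day 1.

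Genes with the most similar pattern were looked for over 106 sums of a class in a condition, among 3679 genes, by Pearson's r of log2(CPM + 10). The sums share libraries and classes, so r is a description. *Fcer1g* and *Tyrobp* were each other's neighbour with r = 0.86, beside *Itgam*, an integrin of myeloid cells (0.86), for *Fcer1g*. For *Tyrobp* the 2 nearest were *Fgr*, a Src family kinase, and *Ptpn6*, the phosphatase SHP-1 (0.87 for both). *Fcgr1* was nearest to *Cx3cr1*, *C1qb* and *Apobec1* (0.82, 0.81 and 0.81), *Fcgr3* to *Igsf6*, *Lpcat2* and *Lilrb4a* (0.90, 0.89 and 0.88) and *Fcgr4* to *Klra2*, *Slc11a1* and *Cd300c2* (0.88, 0.84 and 0.81). *Fcgr2b* was nearest to *Pid1*, *Ctss* and *Rasgef1b* (0.86, 0.81 and 0.81), and *Fcgrt* to *Pdia3*, *Cadm1* and *Myo9a* with lower values (0.68, 0.68 and 0.66). Among the members, *Fcgr3* and *Fcgr4* had r = 0.78 and *Fcgr1* and *Fcgr2b* r = 0.74, while *Fcgrt* had r between −0.20 and 0.29 with the other 6.

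Other genes of the pathway were read from fixed lists. Of 7 measured receptors that use FcRγ, the C-type lectins *Clec4n* (Dectin-2), *Clec4d* and *Clec4e* (Mincle) passed the limit in monocyte-like cells. Vehicle over control called *Clec4d* (1.65 ± 0.67) and *Clec4e* (0.99 ± 0.42) higher at day 1 and *Clec4n* (2.11 ± 2.06) and *Clec4d* (2.00 ± 0.90) at day 7, or 2 of 3 on each day against 17.1% and 27.4% of all genes. At day 14 it called none, against 7.01%. Entospletinib over vehicle called 2 of 3 lower at day 1, *Clec4d* (−0.73 ± 0.21) and *Clec4n* (−0.70 ± 0.39), against 8.96% of all genes. At day 7 it called all 3 lower, against 22.7% of all genes, with −1.98 ± 0.66 for *Clec4n*, −1.84 ± 0.95 for *Clec4d* and −0.62 ± 0.32 for *Clec4e*. The median of the 3 was −1.84 at day 7, where the median of all genes is 0 by construction. At day 14 *Clec4n* alone was called lower (−1.34 ± 1.89), against 6.19% of all genes, and the median of the 3 was −0.06. *Clec4n* was under 50 CPM in the control (43.2 CPM) and with entospletinib at day 14 (42.6 CPM), and passed the limit in those pairs only through the vehicle pool. In macrophage-like cells entospletinib over vehicle called *Clec4e* (−0.68 ± 0.53) and *Clec4d* (−0.64 ± 0.25) lower at day 1, both of the 2 tested against 3.42% of all genes. At day 14 it called *Clec4n*, the 1 tested, against 9.72%, at 20.3 CPM in the entospletinib pool and 81.6 CPM in its vehicle pair (−2.08 ± 0.90). All 3 were under 50 CPM with entospletinib in these pairs and passed only through the vehicle pool. Nothing is therefore read from these counts or from the shares of all genes beside them. For entospletinib over vehicle in monocyte-like cells at day 7, all 3 lectins thus had calls of the opposite sign to that of *Fcer1g*. Nothing is read from the day 14 call of *Clec4n*, which passed the limit only through the vehicle pool.

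Of 14 receptors that use DAP12, 4 to 7 passed the limit in monocyte-like cells and 1 or 2 in macrophage-like cells. In monocyte-like cells vehicle over control called 2 higher and 1 lower of 6 at day 1, 1 higher and 2 lower of 5 at day 7 and 1 lower of 4 at day 14, against 17.1%, 27.4% and 7.01% of all genes. Entospletinib over vehicle called none of 7, 2 higher and 1 lower of 5, and 1 higher of 6 on these days, against 8.96%, 22.7% and 6.19%. In macrophage-like cells 1 higher and 1 lower of 2 were called with vehicle at day 1, against 31.0% of all genes, and none in the other comparisons. Several of these receptors were under 50 CPM in one pool of a pair, so nothing is read from these counts. *Trem1*, which amplifies inflammatory responses of phagocytes, was called higher with vehicle than in the control in monocyte-like cells at days 1 and 7 (1.36 ± 0.94 and 1.37 ± 0.97) and lower with entospletinib than with vehicle at day 7 (−1.86 ± 1.20). The control pool had 41.6 CPM of it, the vehicle pools of days 1 and 7 had 120 and 88.6 CPM, and the entospletinib pool of day 7 had 31.8 CPM, so in each of these pairs it passed the limit only through the vehicle pool. *Clec5a* was called higher with vehicle at day 1 in macrophage-like cells (1.53 ± 0.28), at 108 CPM against 33.8 CPM in the control, and it too passed only through the vehicle pool. *Sirpb1a* and *Sirpb1b* were called higher with entospletinib at day 7 in monocyte-like cells (1.55 ± 0.41 and 1.31 ± 0.37), and both were called lower with vehicle than in the control on that day (−2.18 ± 0.41 and −1.46 ± 0.25). *Sirpb1a* was at 40.7 CPM with vehicle at day 7 and passed the limit in these pairs only through the other pool. It was also called lower with vehicle in monocyte-like cells at days 1 (−0.76 ± 0.21) and 14 (−0.69 ± 0.36) and in macrophage-like cells at day 1 (−1.55 ± 0.26). These genes belong to a family of near-identical genes whose reads may have been split.

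Of 17 kinases and adaptors downstream, 12 to 14 passed the limit in monocyte-like and 14 in macrophage-like cells. In monocyte-like cells 6 of 12 were called lower with vehicle than in the control at day 7 and none higher, against 27.4% of all genes called, among them the Src family kinases *Fgr* (−1.12 ± 0.23) and *Fyn* (−1.12 ± 0.37) and the lipid kinase *Pik3cd* (−0.91 ± 0.24), with a list median of −0.56. At day 1 *Pik3cd* alone was called (−0.75 ± 0.17), 1 of 12 against 17.1% of all genes. At day 14 *Blnk* alone was called, 1 of 13 against 7.01%. It was higher by 2.11 ± 0.90, at 95.1 CPM against 23.3 CPM in the control, and passed the limit only through the vehicle pool. Nothing is therefore read from the 1 of 13. Entospletinib over vehicle at day 7 called 4 of 13 higher and none lower, against 22.7% of all genes, among them *Fgr* (1.07 ± 0.15), *Pik3cd* (0.73 ± 0.35) and *Plcg2* (0.67 ± 0.24), with a list median of 0.18. It called 2 of 14 higher at day 1, against 8.96% of all genes, and none of 13 at day 14, against 6.19%. In macrophage-like cells the calls were few. Vehicle over control called 2 of 14 lower at day 1, *Pik3cd* (−1.02 ± 0.20) and *Blnk* (−0.72 ± 0.15), a share below the 31.0% of all genes, and none of 14 at days 7 and 14, against 10.5% and 13.5%. Entospletinib over vehicle called *Fgr* higher at day 1 (0.90 ± 0.23) and *Lcp2* lower at day 14 (−0.59 ± 0.24), 1 of 14 on each day against 3.42% and 9.72% of all genes. *Syk* itself was not called in either class, at 480.2 CPM in macrophage-like cells of the control, 367, 443 and 549 CPM in the vehicle pools and 325, 444 and 468 CPM in the entospletinib pools.

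Of 13 inhibitory receptors and phosphatases, 11 passed the limit in monocyte-like cells. Vehicle over control called *Cd300lf* and *Ubash3b* higher and *Cblb* and *Cd300a* lower at days 1 and 7, 4 of 11 on each day against 17.1% and 27.4% of all genes, with *Cblb* at 577 CPM in the control and 118 CPM at day 7. At day 14 *Cd300lf* was again called higher and *Cblb* and *Cd300a* lower, 3 of 11 against 7.01%. *Cd300lf* was at 44.9 CPM in the control and passed the limit only through the vehicle pools. Nothing is therefore read from these counts of vehicle over control or from the shares of all genes beside them. Entospletinib over vehicle called *Cblb*, *Cd300a* and *Ptpn6* higher at day 7 (1.22 ± 0.45, 1.01 ± 0.32 and 0.78 ± 0.37), 3 of 11 against 22.7% of all genes. *Cblb* and *Cd300a* were also called higher at days 1 (0.76 ± 0.10 and 0.60 ± 0.10) and 14 (1.24 ± 0.33 and 0.73 ± 0.36), and *Lilrb4a*, an ITIM receptor, was called lower at day 14 (−0.86 ± 0.64), or 2 of 11 at day 1 against 8.96% of all genes and 3 of 11 at day 14 against 6.19%. In macrophage-like cells 5 of 11 were called with vehicle at day 1, against 31.0% of all genes, with *Cd300lf* (1.57 ± 0.42) and *Ubash3b* (0.72 ± 0.18) higher and *Cd300a* (−1.32 ± 0.15) and *Cblb* (−0.70 ± 0.24) lower. *Cd300lf* was at 26.9 CPM in the control there and again passed the limit only through the vehicle pool, so nothing is read from the 5 of 11. *Lilrb4a* was the other gene called higher with vehicle at day 1 (0.82 ± 0.10), and it was the 1 gene of 11 called for entospletinib over vehicle on that day, lower (−0.66 ± 0.09) against 3.42% of all genes. At day 14 *Ubash3b* was the 1 of 10 called, lower (−0.65 ± 0.15) against 9.72%. Of 11 other Fc receptors, 6 other ITAM chains and 6 ligand genes, none passed the limit in macrophage-like, monocyte-like or neutrophil-like cells. Transcripts of the IgG heavy chains were rare in macrophage-like cells, with 7 counts (1.71 CPM) or fewer of *Ighg1* in any pool. In B-cell-like cells *Ighg1* had 276 counts (289 ± 381 CPM) with entospletinib at day 14 and 5 counts or fewer in each of the other 6 pools.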

How the data were processed

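The authors deposited 1 matrix of counts per gene and cell that holds all 8 sublibraries of combinatorial-barcode libraries of fixed cells (Parse Evercode). It was made with the Parse pipeline 1.1, per the study's methods, on mm10, the genome build in the labels. The annotation release is not given in the sources used here. The files give each cell's condition in a cell table, its sublibrary (s1 to s8) was read from its barcode name, and each condition is 1 pool of 3 mice, so conditions have no replicates.

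Cells with over 300 genes, under 20000 counts, under 25% mitochondrial and under 1.5% ribosomal protein counts were kept. They were clustered (igraph 0.11.9, leidenalg 0.10.2, numpy 2.4.6, scipy 1.17.1, pandas 2.3.3, Python 3.11.15) and named from marker lists. Doublet scores marked 8.70% of cells, which were kept and removed as an alternative. The 7 member genes took no part in the clustering. Counts were summed per class and condition. Ratios were centred on the median gene with a mean of at least 50 CPM, and a call needed 1.5-fold and 1 direction in all 8 sublibraries. Poisson and Clopper-Pearson 95% intervals cover counting error only. Classes were compared with an exact sign-flip test over 7 pools. For the 3 same-day pairs of treatments an exact permutation test cannot go below p = 0.25, so none was run. TMM factors came from edgeR 4.0.16 in R 4.3.3. Gene models were those of GENCODE M21. Scripts were tested on simulated data.

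The members, taken by gene name, and the lists were chosen with earlier results of these data known. All 7 members are named, with the 3 genes of highest Pearson's r to each, up to 4 called genes per list and direction, and *B2m* as the partner of *Fcgrt*. Some genes that this rule names are not reported here. *Syk* and *Ighg1* were named after their values were seen. Alternatives were another scaling, other limits on genes and cells, doublet removal, gating of single cells, thinning to 500 counts, a 2-fold limit, other pseudocounts and leaving out each sublibrary.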

Additional observations from a re-analysis of the deposited data

Results flagged for a closer look

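Of 102 levels with at least 80 counts, 4 held a sublibrary far from the other 7, and chance alone gives about 1 such level in 20. *Fcer1g* in macrophage-like cells with vehicle at day 1 was at 219 CPM in sublibrary s2, where the others lay between 260.5 and 293 CPM. *Tyrobp* in macrophage-like cells was at 111 CPM in sublibrary s6 of the control (others 129 to 142 CPM) and at 109 CPM in sublibrary s3 of vehicle at day 14 (others 121 to 126 CPM). *Tyrobp* in neutrophil-like cells with vehicle at day 1 was at 742 CPM in sublibrary s7 (others 624 to 672 CPM).

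*Fcgr2b* had relative ratios of vehicle over control of opposite sign, each in 8 of 8 sublibraries. The value was −0.57 in macrophage-like cells at day 1, against 0.34 there at day 7, 0.50 at day 14 and 0.44 in monocyte-like cells at day 1. *Tyrobp* in macrophage-like cells had −0.19 for entospletinib over vehicle at day 1 and 0.25 at day 14. Without the limit on ribosomal protein genes the day 1 value was 0.05. These differences were not tested, since each condition is 1 pool.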

How the results depend on the processing

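With 1 pool per condition, no alternative bears on the spread between mice. Tests between classes passed in 84 of 105 cases and in 74 to 84 under the alternatives, 79 to 84 when a sublibrary was left out. With the 40 neutrophil-like cells of entospletinib at day 14 left out, which was added after the data were seen, 82 passed. The counts of called members depended more on the setting, and the cause was not tested. The shares of all genes called are given for the main setting alone. These counts therefore do not show whether members changed more than all genes did. In macrophage-like cells the 3 calls of vehicle over control became 1 at 2-fold (3 to 4 without a sublibrary). The 3 calls of entospletinib over vehicle became 0 at 2-fold, 5 without the ribosomal limit and 0 after thinning (2 to 4). In monocyte-like cells the 3 calls of vehicle over control became 6 with TMM scaling, 5 with no gene filter and 0 after thinning (3 to 5, 5 without s7). The 6 calls of entospletinib over vehicle became 2 at 2-fold and 1 after thinning (6 to 8). In neutrophil-like cells the 0 calls of vehicle over control became 1 with TMM scaling and 1 with no gene filter (0 to 2, 2 without s6), and the 0 of entospletinib over vehicle became 1 after thinning (0 without any sublibrary).

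Of 15 calls, *Fcgr4* in macrophage-like cells, vehicle over control, at day 14 was kept in all 16 alternatives (−1.22 to −1.01), at day 7 in 15 and at day 1 in 14. The least stable were *Fcgr4* for entospletinib over vehicle at day 1 (8 of 16, 0.18 to 0.69) and *Fcgr2b* in monocyte-like cells at day 14 (10 of 16, −0.81 to −0.26). No called ratio changed sign. Of 1419 recomputed ratios, 44 moved by more than the SD over sublibraries. The 1419 include 89 from the 2-fold limit, which cannot change a ratio. They also include 711 from leaving out a sublibrary, which keeps most of the counts. None of these moved, so 44 of 1419 is no measure of stability. Thinning moved 19 of 89 ratios, TMM scaling and no gene filter 9 of 89 each, and gating of single cells 6 of 89. Among uncalled ratios, *Fcgr2b* for entospletinib over vehicle in macrophage-like cells at day 1 was −0.12 with cells gated one by one. Of the 15 calls, thinning ended 12 and the 2-fold limit 10. The tests between classes were paired within pools. Conditions could not be blocked by replicate number, since each is 1 pool, and the 3 same-day pairs of treatments, whose exact test cannot go below p = 0.25, were not tested.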
